A study of Arabidopsis thaliana with 12 samples.

Results

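The difference between ozs3 and wild-type roots at 23 °C rests on 6 of the 12 arrays of this series, chosen by the genotype and temperature in their labels. Of these, 3 held Col-0, the wild type, and 3 held ozs3 (overly zinc sensitive 3), a mutant line in the Col-0 background. All plants were 4 weeks old and grew in hydroponic culture at 23 °C in short days (8 h light, 16 h dark), and the plants of these arrays stayed at 23 °C for the 24 h that the plants of the other 6 arrays spent at 4 °C. Total RNA from whole roots (100 ng per array) was hybridised to Affymetrix ATH1 arrays, and each array is labelled as a separate biological replicate. The labels name neither the gene nor the allele behind ozs3, nor how many lines it stands for, so no mutated gene could be checked in the arrays. They do not say how many plants a replicate held.

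Zinc is needed by many enzymes and is harmful in excess. Arabidopsis roots take it up through ZIP transporters, and they store the surplus in vacuoles through metal tolerance proteins of the cation diffusion facilitator family. The bZIP19 and bZIP23 factors switch on uptake genes when zinc runs short, and zinc supply affects the iron economy of the root as well. Plants also switch on a shared set of low-oxygen genes when respiration runs short of oxygen, which roots meet sooner than leaves.

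Values below are log2 RMA values, for which a step of 1 is a doubling of signal. Differences are ozs3 minus Col-0 with the moderated standard error (SE) from limma. A gene was called where its Benjamini-Hochberg adjusted p over all 22746 probe sets was under 0.05. Pairs of arrays of 1 genotype at 23 °C had a Pearson r of 0.994 to 0.997 over the probe sets, and pairs of different genotypes 0.990 to 0.994. The first principal component of the 6 arrays held 48.7% of the variance and separated the genotypes. The second held 23.9% and set replicate 3 of both genotypes (−18.0 and −17.5) apart from the others (0.89 to 17.0). Arrays with the same replicate number deviated together (r = 0.294, 0.326 and 0.473). Counts with the replicate number as a block are therefore also given for all probe sets and for some lists where they change. Whole roots mix many cell types, and fewer cells of a type cannot be told apart from less RNA per cell.

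Of the root markers, 6 of 23 had a named probe set. PYK10, an abundant β-glucosidase of root ER bodies, lay between 13.15 and 13.59 in all 6 arrays, and the root hair expansin gene EXPA7 between 8.82 and 9.31. Of the shoot markers, 3 of 14 had one. The Calvin cycle genes SBPASE and PRK lay at or below 4.72, in the dim range of 5 and less, and RCA, the Rubisco activase gene, between 6.86 and 7.78. None of these 9 markers was called.

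A single array of the mutant stood apart in cold-responsive genes. Over the 10 named members of a list of cold-regulated genes, ozs3 replicate 3 had a median 1.35 above its other replicates. The Col-0 arrays deviated by −0.07 to 0.06 in the same measure. Mutant replicates 1 and 2 lay at −0.51 and −0.79, each measured against a pair of arrays that includes replicate 3. Without mutant replicate 3, 1299 probe sets were called at 23 °C (683 higher and 616 lower), against 1442 with it. Only 1035 of the 1299 were among the 1442, so the calls changed more than the totals.

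Mutant and wild-type roots differed in 1442 of 22746 probe sets at 23 °C (6.34%), of which 720 were higher in ozs3 (3.17%) and 722 lower (3.17%). With the replicate number as a block the total was 2253, and with the block and the 6 arrays alone it was 2718. With replicate 3 left out of both genotypes it was 752, and without either mutant replicate 1 or 2 it was 783 or 767. Probe sets of a single gene named 13356 genes, and 794 of these were called (5.94%), with 392 higher (2.94%) and 402 lower (3.01%). The median called rise was 0.51, or 1.43-fold, and the median called fall was −0.57, or 1.48-fold. At least 2-fold changes were called for 50 genes that rose (0.374%) and 57 that fell (0.427%), and over all probe sets for 69 (0.303%) and 114 (0.501%).

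The genes that fell were expressed at a higher level in wild-type roots than those that rose. The median Col-0 level was 8.61 for genes that fell and 7.24 for genes that rose, against 6.73 over all named genes. Only 16 of the 402 genes that fell were dim in Col-0, compared with 34 of the 392 that rose and 33.0% of all named genes. In ozs3 the medians were close, at 7.92 for genes that fell and 7.87 for genes that rose. There 44 of the genes that fell were dim and 13 of those that rose. Being called lower favours a high Col-0 level and being called higher a low one, so the contrast in Col-0 follows largely from the calls. In 789 of the 794 called genes (99.4%), every array of one genotype lay above every array of the other. That was so in 25.1% of all named genes, and the higher share among called genes also follows largely from the calls.

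**Figure D1:**
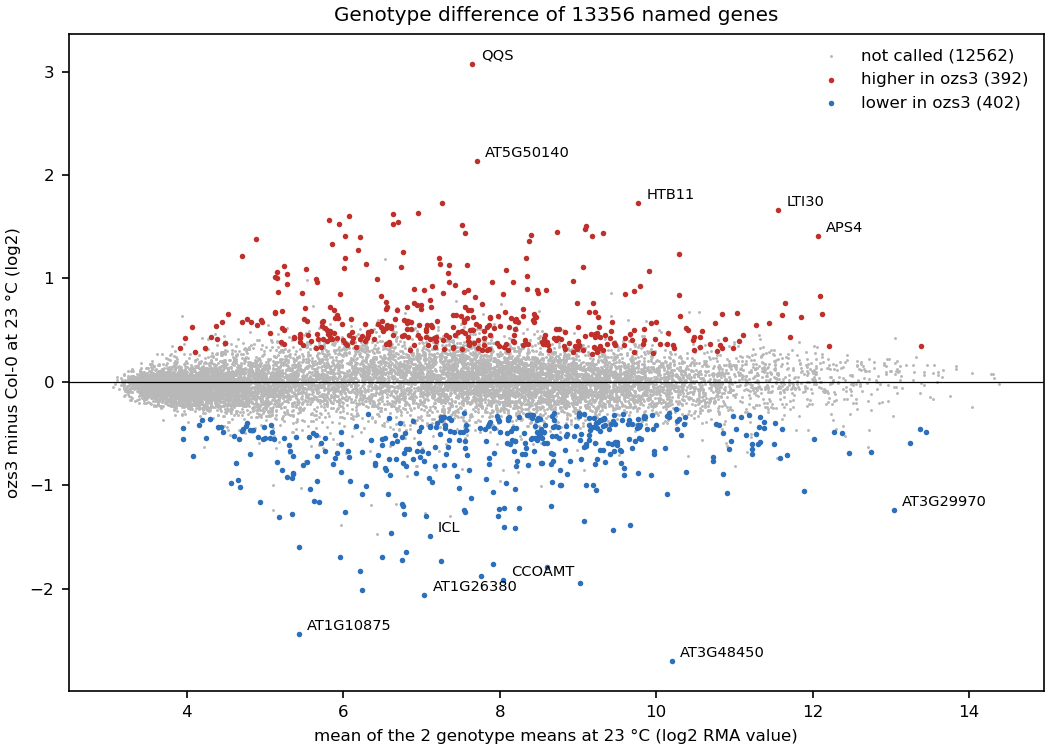
Difference between ozs3 and Col-0 at 23 °C (y axis, log2) against the average of both genotype means (x axis, log2 RMA value), 1 point per named gene. The 392 genes that rose and the 402 that fell are coloured; QQS, with a difference of 3.08, and AT3G48450, with −2.70, lie farthest from 0.

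The gene with the largest fall was AT3G48450. Its values were 11.72, 11.30 and 11.63 in Col-0 and 8.94, 8.59 and 9.03 in ozs3. It was thus among the brighter genes of wild-type roots, and it fell 6.49-fold in the mutant (−2.70 ± 0.19 SE, limma adjusted p = 3.54e-06). Most of the genes with the largest changes are known in the tables used here by a locus code alone, and no role is given for these.

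AT1G10875 fell 5.41-fold from a variable level in Col-0. Its values were 6.45, 5.76 and 7.74 in Col-0 against 4.11, 4.11 and 4.43 in ozs3 (−2.44 ± 0.36, adjusted p = 0.0013). All mutant arrays were dim and below every wild-type array, and a fall into the dim range can be understated. AT3G46480 fell 4.03-fold, with Col-0 arrays at 7.31, 7.52 and 6.91 and mutant arrays at 5.22, 5.19 and 5.30 (−2.01 ± 0.14, adjusted p = 2.98e-06).

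CCOAMT encodes a caffeoyl-CoA 3-O-methyltransferase of phenylpropanoid metabolism, which makes lignin and other phenolics. Its values of 9.22, 8.89 and 8.88 in Col-0 and 7.33, 7.01 and 6.90 in ozs3 differed 3.77-fold (−1.92 ± 0.22, adjusted p = 0.000212). CCR2, a cinnamoyl-CoA reductase, fell by less, from 8.57, 8.79 and 8.81 to 8.13, 8.08 and 8.32 (−0.54 ± 0.14, adjusted p = 0.0298). Its call ended without any 1 of 4 arrays (Col-0 replicates 2 and 3, mutant replicates 1 and 2), with an adjusted p of up to 0.112. Of 5 named phenylpropanoid and lignin enzymes these 2 fell and none rose, against 3.01% of all named genes that fell, and the median of the list was −0.21 against −0.01 over all named genes.

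Further enzymes fell as well. ICL, the isocitrate lyase of the glyoxylate cycle, had 7.77, 8.22 and 7.57 in Col-0 and 6.50, 6.32 and 6.25 in ozs3, a 2.82-fold fall (−1.49 ± 0.27, adjusted p = 0.00471). GAT1_2.1, annotated as a glutamine amidotransferase, had 8.17, 9.25 and 8.56 in Col-0 against 7.63, 7.26 and 7.44 (−1.22 ± 0.23, adjusted p = 0.00591). Another probe set of GAT1_2.1 was dim, with means of 3.85 in Col-0 and 3.66 in ozs3, and was not called (−0.19, adjusted p = 0.458). PWD, a phosphoglucan water dikinase of starch turnover, fell 1.71-fold (−0.78 ± 0.09, adjusted p = 0.000258). All 3 enzymes were lower in every mutant array than in any wild-type array.

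GRX480, also called ROXY19, is a plant-specific glutaredoxin that binds TGA transcription factors. It had 6.69, 6.70 and 8.63 in Col-0 against 5.40, 5.68 and 5.87 in ozs3 (−1.69 ± 0.39, adjusted p = 0.0197). Replicate 3 of Col-0 was well above its group. The call ended without mutant replicate 1 or 2 and in the fit of the 6 arrays alone, with an adjusted p of up to 0.0818. AGL72, a MADS-box factor, had 7.27, 7.40 and 6.71 in Col-0 and 4.50, 6.13 and 5.25 in ozs3, a 3.56-fold fall (−1.83 ± 0.38, adjusted p = 0.0106). The mutant arrays spread widely but did not reach the wild-type values.

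Of the 30 largest falls, the smallest was −1.24, and 4 had a dim mean in the mutant. AT2G30670 (adjusted p up to 0.129 in the alternatives), AT3G29970 (up to 0.0629) and GRX480 lost their call in at least 1 alternative, and the other 27 kept theirs in all 21. AT3G29970 was among the brightest genes of the array, at 13.76, 13.40 and 13.82 in Col-0 and 12.48, 12.33 and 12.45 in ozs3. AT2G41730 was read by a probe set of the type that may also detect related sequences.

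**Figure D2:**
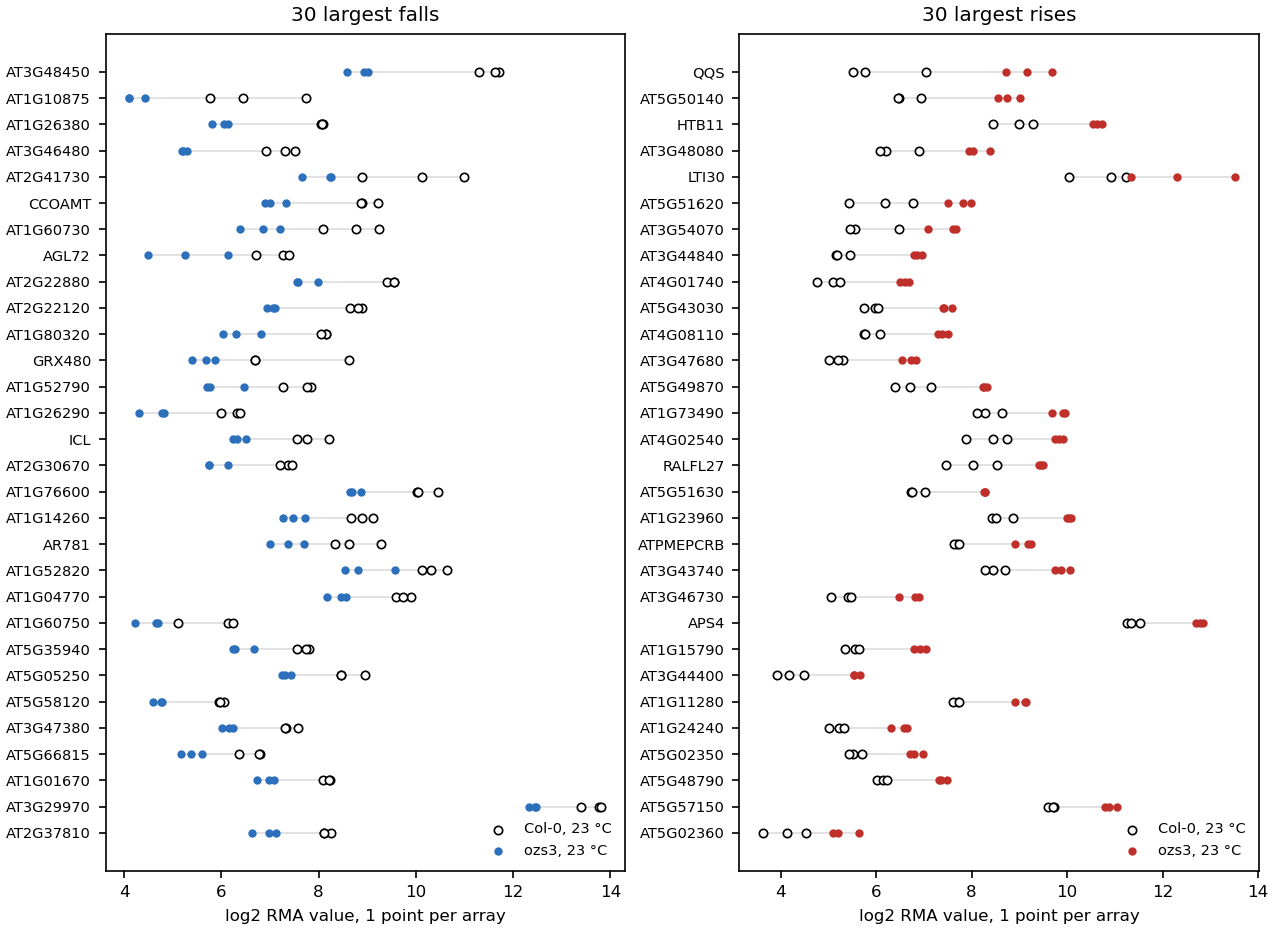
Log2 RMA value of each of the 6 arrays at 23 °C (x axis, 1 point per array) for the 30 largest falls (left) and the 30 largest rises (right), the genes being in order of the size of the change. Open circles are Col-0 and filled circles ozs3; no gene overlaps between genotypes, which the choice of these genes required, and Col-0 replicates of GRX480 and mutant replicates of LTI30 spread most widely.

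The list of core low-oxygen genes holds loci whose transcripts accumulate across cell types of hypoxic seedlings, and 24 of its 48 loci had a named probe set. Of these, 7 fell and none rose, a share of 29.2% against the 3.01% of named genes that fell. This list, like all lists here, was chosen with earlier results of these data known, so the share is a description. The difference was below 0 for 23 of the 24, and the list median was −0.49 against −0.01 over all named genes. The median deviation of the list from the mean of all 6 arrays was 0.19, 0.31 and 0.27 in Col-0 and −0.23, −0.20 and −0.32 in ozs3, so that no array of one genotype crossed into the other.

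AT5G42200 changed most in this list, from 10.61, 11.08 and 10.34 to 9.72, 9.68 and 9.38 (−1.08 ± 0.21, adjusted p = 0.00813). TIL, the temperature-induced lipocalin, had 13.06, 13.11 and 13.08 in Col-0 and 12.38, 12.38 and 12.46 in ozs3 (−0.68 ± 0.08, adjusted p = 0.000212). AT1G26270 fell with almost no spread in the mutant, from 11.42, 11.75 and 11.56 to 10.89, 10.87 and 10.87 (−0.70 ± 0.09, adjusted p = 0.000585). These were small falls of bright genes, at 1.60 to 2.12-fold. AT2G15880 (−0.78, adjusted p = 0.0101) and AT1G74940 (−0.51, adjusted p = 0.0134) were called too. Both lost the call without replicate 3 of both genotypes (adjusted p = 0.0983 and 0.0741), and AT1G74940 also without Col-0 replicate 2 (0.0600). CML38, a calmodulin-like gene of the same list, missed the threshold, with 11.84, 11.99 and 11.90 in Col-0 against 11.18, 11.28 and 11.07 (−0.73 ± 0.21, adjusted p = 0.0508). It passed with the replicate block (adjusted p = 0.00421).

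The number of low-oxygen genes called depended on the fit. It was 13 with the replicate block and 12 arrays and 15 with the block and the 6 arrays. It was 4 to 11 with any single array left out, and 3 without replicate 3 of both genotypes, where the median was −0.40. No member rose in any of these fits.

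Genes of the mitochondrial dysfunction response, which plants induce when the respiratory chain is disturbed, included 3 that fell among 10 named members, against 3.01% of all named genes, and none rose. With the replicate block 4 fell in the fit of 12 arrays and 5 in that of 6. The list median was −0.47. AT2G41730 had 10.12, 8.89 and 10.98 in Col-0 and 8.26, 7.66 and 8.24 in ozs3, a 3.85-fold fall (−1.94 ± 0.37, adjusted p = 0.00685). AT2G21640 fell from 7.51, 6.61 and 7.90 to 6.17, 6.04 and 6.27 (−1.18 ± 0.25, adjusted p = 0.0117). In both genes, wild-type replicate 3 was the highest of the 6 arrays and replicate 2 the lowest of Col-0. Over the list, the median deviation from the mean of the 6 arrays was 0.22, −0.14 and 0.84 in Col-0 and −0.32, −0.28 and −0.09 in ozs3, so wild-type replicate 2 lay within the mutant range. Without Col-0 replicate 3, or without any 1 mutant array, 2 members were called, and without replicate 3 of both genotypes 1 was. With array weights 6 fell and 1 rose.

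Of 5 named genes of indole-derived defence compounds, 3 fell and none rose, against 3.01% of all named genes that fell. AT1G26380 had nearly identical wild-type values of 8.08, 8.05 and 8.07 and mutant values of 6.14, 6.05 and 5.81, a 4.17-fold fall (−2.06 ± 0.24, adjusted p = 0.000236). AT1G26410, of the same locus series, fell by less, from 4.97, 4.97 and 5.12 to 4.31, 4.12 and 4.27 (−0.79 ± 0.09, adjusted p = 0.000135). AT1G26420 fell by 0.55 (adjusted p = 0.0463), a call that 13 alternatives ended, with an adjusted p of up to 0.176. AT1G26410 and AT1G26420 were dim or close to it in Col-0.

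The next 4 genes were singled out after their values were seen. The plant defensins LCR67 (PDF1.1) and PDF1.4 were low in Col-0, at 5.35 to 5.70 and 5.63 to 5.70, and lower in the mutant, at 4.16 to 4.49 and 4.87 to 5.04 (−1.16 ± 0.20 and −0.67 ± 0.10, adjusted p = 0.00309 and 0.00143). LOV1, a resistance gene of the nucleotide-binding leucine-rich repeat class known for victorin sensitivity, had 6.22, 6.11 and 6.29 in Col-0 and 5.03, 4.84 and 5.30 in ozs3 (−1.15 ± 0.12, adjusted p = 0.000121). OSM34, an osmotin of the thaumatin-like family, was bright, at 12.37, 12.48 and 12.39 against 11.36, 11.47 and 11.24 (−1.05 ± 0.25, adjusted p = 0.0236). Its call ended without any 1 array at 23 °C (adjusted p up to 0.0793). Its Col-0 SD was 0.06 at 23 °C and 0.72 at 4 °C, and the fit takes 1 spread from all 12 arrays. Of 10 named defensins in the list, which does not hold PDF1.4, LCR67 was the 1 called (10%, against 5.94% of all named genes). Differences above 0 were found for 6 of the 10, and the list median was 0.02.

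The WRKY factors, many of which act in defence and senescence, had 2 of 7 named members lower, against 3.01% of all named genes, and none higher. WRKY6 fell from 9.21, 9.08 and 9.21 to 8.66, 8.28 and 8.61 (−0.65 ± 0.14, adjusted p = 0.0117). WRKY22 fell by 0.50 (adjusted p = 0.0442), a call that 10 alternatives ended. Without mutant replicate 2, or without replicate 3 of both genotypes, neither was called. The ubiquitin ligase gene PUB22, a negative regulator of immune signalling, fell by 0.64 (adjusted p = 0.0251). It was the 1 call among 8 named RING and U-box ligases (12.5%, against 5.94% of all named genes). With the replicate block and 6 arrays, 2 of the 8 fell. PUB22 lost the call without any 1 of 4 arrays (adjusted p up to 0.0970).

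Of 7 named members of the zinc homeostasis list 2 fell and none rose (28.6%, against 3.01% of all named genes that fell). The median was −0.18, and all 7 differences were below 0. The list had lost 3 loci after values were seen, so its share and signs are a description. In the fit of the 6 arrays alone 1 of the 7 fell. MTPA1, of the metal tolerance protein family, had 7.39, 7.64 and 5.39 in Col-0 and 5.67, 4.91 and 4.77 in ozs3 (−1.69 ± 0.46, adjusted p = 0.0438). The groups overlapped, since wild-type replicate 3 lay below mutant replicate 1, and 10 of the 12 fits without 1 array ended the call (adjusted p up to 0.176). AT2G36950 was steadier, at 12.02, 12.15 and 11.92 against 11.41, 11.35 and 11.21 (−0.71 ± 0.10, adjusted p = 0.00105).

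The uptake transporter gene ZIP9 had 9.46, 9.85 and 9.02 in Col-0 and 9.15, 9.01 and 8.90 in ozs3, overlapping groups that did not pass (−0.42 ± 0.18, adjusted p = 0.211). bZIP19, the zinc deficiency regulator, had 10.73, 10.77 and 10.82 against 10.45, 10.54 and 10.79 (−0.18 ± 0.11, adjusted p = 0.407). A related factor outside the list, BZIP24, known from salt stress, rose from 6.61, 6.63 and 7.05 to 7.24, 7.52 and 7.68 (0.72 ± 0.15, adjusted p = 0.0125). Its call ended without any 1 of 3 arrays (Col-0 replicates 1 and 2, mutant replicate 2; adjusted p up to 0.0550).

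Of 8 named iron deficiency genes 2 fell and none rose, against 3.01% of all named genes that fell, and the median was −0.03. AT1G47400 fell from 6.29, 6.89 and 6.50 to 5.52, 5.59 and 5.69 (−0.96 ± 0.16, adjusted p = 0.00251). PYE (POPEYE), a bHLH regulator of iron homeostasis, had 7.95, 8.13 and 8.10 in Col-0 and 7.65, 7.74 and 7.51 in ozs3 (−0.43 ± 0.11, adjusted p = 0.0354). Its call ended without any 1 array at 23 °C other than Col-0 replicate 1 (adjusted p up to 0.119), and without replicate 3 of both genotypes (0.221). bHLH121, which acts upstream of PYE in the iron response, fell by 0.37 (adjusted p = 0.0297). It was the 1 call among 6 named bHLH factors (16.7%, against 5.94% of all named genes). Of these 6, 3 had a difference above 0 and 3 below, with a median of 0.05. ILR3, bHLH104 and bHLH34 were not called, and their differences stayed above 0 with any 1 array left out. bHLH121 also lost its call in several alternatives (adjusted p up to 0.115).

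Sulfur metabolism held changes in both directions. APS4, an ATP sulfurylase that activates sulfate as the entry step of assimilation, was bright and rose 2.65-fold, from 11.24, 11.52 and 11.33 to 12.70, 12.84 and 12.78 (1.41 ± 0.09, adjusted p = 2.98e-06). In the list of sulfur limitation genes 2 of 4 named members fell and none rose, against 3.01% of all named genes that fell, with a median of −0.49. AT1G04770 went from 9.91, 9.59 and 9.74 to 8.47, 8.57 and 8.17 (−1.34 ± 0.21, adjusted p = 0.00178). MGL, the methionine gamma-lyase, had 7.36, 7.77 and 7.85 in Col-0 and 6.66, 7.01 and 7.21 in ozs3 (−0.70 ± 0.15, adjusted p = 0.0122), and its call ended without any 1 of 3 arrays (adjusted p up to 0.0573).

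Further genes with a role in sulfur chemistry fell. SUFE2, an activator of cysteine desulfurase in iron-sulfur cluster assembly, fell 1.96-fold, from 7.59, 7.29 and 7.97 to 6.48, 6.46 and 7.01 (−0.97 ± 0.18, adjusted p = 0.00603). HL, a HAL2-like phosphatase that acts on the phosphonucleotide by-product of sulfation, fell from 9.59, 9.83 and 9.62 to 9.19, 9.07 and 9.02 (−0.59 ± 0.09, adjusted p = 0.00229). No array of one genotype overlapped the other in these 5 genes. SUFE2, HL and APS4 were singled out after their values were seen.

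**Figure D3:**
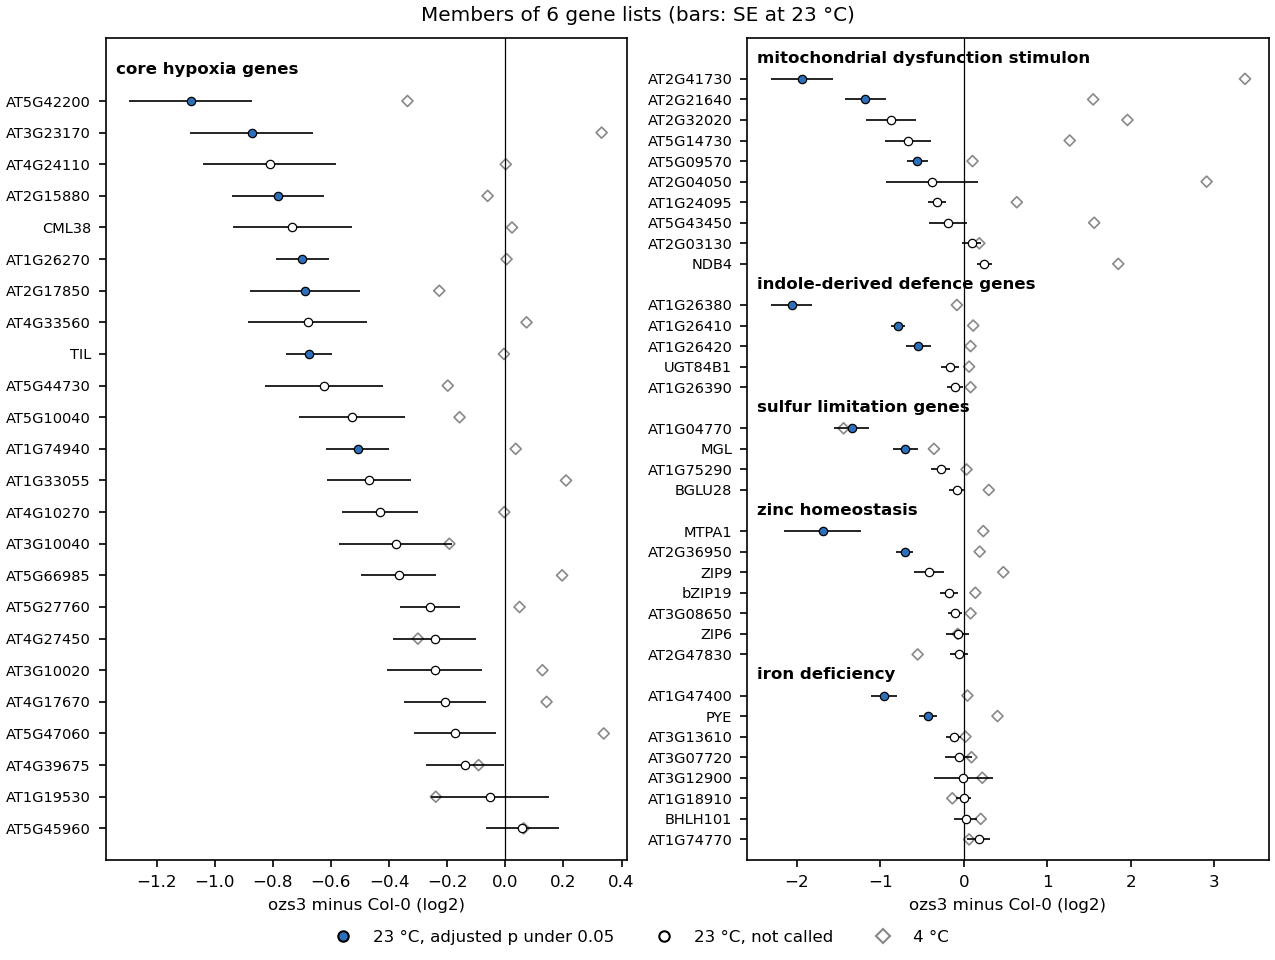
Difference between ozs3 and Col-0 (x axis, log2) for every named member of 6 gene lists, the core low-oxygen genes on the left and 5 shorter lists on the right. Circles with SE bars are 23 °C, filled where the adjusted p was under 0.05, and diamonds are 4 °C; 23 of 24 low-oxygen genes lie below 0 at 23 °C, while 8 of 10 mitochondrial dysfunction genes were called higher at 4 °C.

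The gene with the largest rise was QQS (QUA-QUINE STARCH), an orphan gene found in Arabidopsis thaliana that affects the division of carbon between starch and protein. It had 5.51, 5.78 and 7.05 in Col-0 and 9.68, 8.73 and 9.16 in ozs3, an 8.44-fold rise (3.08 ± 0.43, adjusted p = 0.000923). Wild-type replicate 3 was high for its group but below every mutant array. AT5G50140 followed at 4.40-fold, from 6.49, 6.47 and 6.95 to 9.02, 8.56 and 8.73 (2.14 ± 0.16, adjusted p = 6.29e-06).

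HTB11, a histone H2B gene, rose 3.32-fold, from 8.99, 8.44 and 9.28 to 10.74, 10.63 and 10.54 (1.73 ± 0.17, adjusted p = 4.36e-05). HTB1, another H2B gene, fell from 9.38, 9.25 and 9.27 to 8.79, 8.67 and 8.76 (−0.56 ± 0.09, adjusted p = 0.00158). H2B genes are similar in sequence, so signal may be shared between them. The linker histone gene HIS1-3, known from drought, had 7.94, 9.04 and 8.48 against 6.91, 7.79 and 7.89 and missed the threshold (−0.96 ± 0.27, adjusted p = 0.0505), which it passed with the replicate block (0.00940). The 8 named histone genes had 1 rise, 1 fall and a median of 0.00, with 25% called against 5.94% of all named genes.

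AT3G48080 rose 3.31-fold, with 6.21, 6.08 and 6.90 in Col-0 and 8.02, 7.95 and 8.38 in ozs3 (1.73 ± 0.19, adjusted p = 0.000131). AT3G44840 rose 3.04-fold with very little spread, from 5.17, 5.19 and 5.45 to 6.80, 6.86 and 6.95 (1.60 ± 0.09, adjusted p = 7.86e-07). AT1G11280 rose 2.58-fold, from 7.72, 7.61 and 7.74 to 9.14, 9.11 and 8.92 (1.37 ± 0.08, adjusted p = 1.21e-06). The spread of these genes was small compared with the step between genotypes.

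LTI30 (XERO2), a dehydrin of the cold and drought response, had 10.91, 10.04 and 11.23 in Col-0 and 12.30, 11.35 and 13.52 in ozs3 (1.66 ± 0.40, adjusted p = 0.0255). Mutant replicate 3, the array with high cold-regulated genes, was the highest, and mutant replicate 2 lay just above the highest wild-type array. LTI30 lost its call when Col-0 replicate 1 or 2 or mutant replicate 1 was left out, with array weights, and in the fit of the 6 arrays alone, with an adjusted p of up to 0.113. It was the 1 gene of the 30 largest rises to lose its call in any alternative that held it. Of the 10 cold-regulated genes, LTI30 rose and AT4G33980 fell, from 8.45, 9.00 and 8.36 to 7.05, 7.30 and 7.78 (−1.23 ± 0.19, adjusted p = 0.00165), and the median was 0.16. The list thus had 20% called, against 5.94% of all named genes. A separate list of 7 late embryogenesis genes had no call.

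Cell wall genes that rose included ATPMEPCRB (PME41), a pectin methylesterase. It had 7.70, 7.63 and 7.74 in Col-0 and 9.19, 9.24 and 8.90 in ozs3, a 2.68-fold rise (1.42 ± 0.11, adjusted p = 6.29e-06). PMEPCRF, another member of the same family, rose by 0.58 ± 0.09 (adjusted p = 0.00229). Thus 2 of 4 named pectin methylesterase genes rose and none fell, against 2.94% of all named genes that rose. The expansin-like genes EXLA1 and EXLA3, which neighbour each other, rose by 0.70 ± 0.14 and 0.89 ± 0.20 (adjusted p = 0.00826 and 0.0206). EXLA1 lay at 7.82, 8.00 and 8.03 in Col-0 and 8.36, 8.62 and 8.96 in ozs3. The call of EXLA3 ended without Col-0 replicate 2 (adjusted p = 0.0903) and in the fit of the 6 arrays alone (0.0734). XTH29 fell by 0.37 (adjusted p = 0.0429), a dim gene whose call ended in 12 alternatives. The other 24 of 27 named expansin and XTH genes were not called, so 11.1% were called against 5.94% of all named genes. With the replicate block 5 of the 27 rose in the fit of 12 arrays and 6 in that of 6, XTH21 (0.58, adjusted p = 0.0282 with 12 arrays) and XTH32 (0.60, adjusted p = 0.0394) among them.

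Signalling genes were called in both directions. RALFL27, of the RALF-like peptide hormone family, rose from 8.03, 7.46 and 8.53 to 9.50, 9.41 and 9.45 (1.45 ± 0.19, adjusted p = 0.000527). The calmodulin-like gene CML43 rose from 8.00, 7.84 and 7.86 to 8.74, 8.88 and 8.78 (0.90 ± 0.10, adjusted p = 0.000135). CML37 of the same family fell by 0.80 (adjusted p = 0.0477), a call that 11 alternatives ended. GH3.1, which belongs to the family of enzymes that join auxin or jasmonate to amino acids, rose from 5.228, 4.996 and 5.246 to 6.423, 6.003 and 6.041 (1.00 ± 0.18, adjusted p = 0.00458). None of the 7 named genes of the auxin-responsive list, which does not hold GH3.1, was called.

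Of the secondary metabolism families, 3 of 50 named UDP-glycosyltransferases rose and 1 fell. The 8% called is close to the 5.94% of all named genes. The genes that rose were UGT72E2, which glucosylates monolignols, UGT76D1 and UGT85A2, at 0.57, 0.53 and 0.53. UGT87A2 fell by 0.73 (adjusted p up to 0.162 in the alternatives). With the replicate block 5 rose and 1 fell in the fit of 12 arrays, and 5 rose and 3 fell in that of 6. Members of this family are similar in sequence. BGLU46, a β-glucosidase that acts on monolignol glucosides, rose by 0.63 ± 0.12 (adjusted p = 0.00618). AOP1, a dioxygenase related to the glucosinolate side-chain enzymes, rose by 0.87 ± 0.13 (adjusted p = 0.00158), from dim values in Col-0 to 5.49 to 5.69 in ozs3. Among 24 named cytochrome P450 genes, CYP718 rose and CYP71B24 fell, and the 8.33% called is close to the 5.94% of all named genes. Both calls ended in several alternatives (adjusted p up to 0.218 and 0.130). Without Col-0 replicate 1 or 3, or mutant replicate 1 or 2, neither was called. With the replicate block and 6 arrays, 2 of the 24 rose and 1 fell.

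Of 1557 genes with a symbol of their own, 55 rose and 61 fell, where 2.94% and 3.01% of all named genes did. Of these 116, 44 changed by 1.5-fold or more. Those not yet described that fell were CYTC6A, a c-type cytochrome (−0.90), YLS5, a DJ-1 family gene (−0.89), bZIP58 (−0.89), MAP1C, a methionine aminopeptidase (−0.88), and VPS24.2, of the membrane-remodelling ESCRT-III complex (−0.72). Also lower were scpl31, a serine carboxypeptidase-like gene (−0.70), ATPC2, a gamma subunit of the chloroplast ATP synthase (−0.64), Prx37, a peroxidase (−0.60), and AR781 (−1.40). Those that rose were scpl42, another serine carboxypeptidase-like gene (0.62), CYP71, a cyclophilin that acts on chromatin (0.61), and KICP-02 (0.61). All were chosen after their values were seen, by that size rule, and scpl31, Prx37, KICP-02 and BGLU46 lost their call in at least 1 alternative.

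Many groups gave no call at 23 °C. Among them were 69 plastid-encoded genes with a median of −0.02 and a range of −0.45 to 0.47, 8 nuclear photosynthesis genes, 17 sugar transport genes, 14 glutathione transferases, 7 ribosome biogenesis genes, 6 root hair genes and 6 autophagy genes. Genes of alternative respiration (4), phosphate starvation (3) and nitrate response (3) gave none either. With the replicate block and 12 arrays, 1 call each appeared among glutathione transferases (GSTL3, −0.47, adjusted p = 0.00512), nuclear photosynthesis genes (PSBY, −0.47, 0.0211) and plastid-encoded genes (ndhC, 0.47, 0.0360). With the block and 6 arrays, further calls were petN, ATGSTF13, GSTU23, SWEET16 of the sugar transporters and IAA33 of the auxin-responsive genes. The MADS factors had 2 rises and 3 falls among 42 (median −0.05), or 11.9% called against 5.94% of all named genes. Of these 5, AGL72 kept its call in every alternative. AGL16 and AGL79 lost theirs in 11 each, AGL62 in 5 and AGL66 in 4. The fit of the 6 arrays alone gave 0 rises and 2 falls. The replicate block with 12 arrays gave 3 rises and 3 falls. Of 45 lists with a named member, 21 held at least 1 call. AT4G28450 and the ubiquitin ligase scaffold gene CUL4 differed by 0.08 ± 0.11 and −0.03 ± 0.08 (adjusted p = 0.751 and 0.896).

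The genes that rose were unevenly spread over the chromosomes. On chromosomes 3 and 5, 3.81% and 4.04% of named genes rose, compared with 1.56% on chromosome 2, 1.65% on chromosome 4 and 2.95% on chromosome 1. Of the 50 genes that rose at least 2-fold, 19 lay on chromosome 3, 17 on chromosome 5, 10 on chromosome 1, 4 on chromosome 4 and 0 on chromosome 2. Falls were spread differently, with 3.59% on chromosome 1, 3.41% on chromosome 5, 3.11% on chromosome 3, 2.32% on chromosome 4 and 2.16% on chromosome 2. No test was made of these shares, which were looked at after the calls were known.

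Locus codes, which follow gene order, were grouped into blocks by the digits before their last 3, and 135 blocks held 50 or more named genes. The median block had 1.89% of its genes higher, and 42 blocks had none. The 10 blocks with the highest shares included 6 on chromosome 3 and 3 on chromosome 5, although 64 of the 135 blocks lie on these chromosomes. In the block of codes that start with AT5G48, 10 of 57 genes rose and 1 fell (17.5% and 1.75%). The block AT3G29 followed, with 13.2% of its genes higher and 9.43% lower. In a stretch of chromosome 3, the blocks AT3G44, AT3G45, AT3G47, AT3G49 and AT3G50 had 11.8%, 11.5%, 10.7%, 10.7% and 9.09% of their genes higher. Falls in these 5 blocks were at 0% to 1.92% except for AT3G47, with 8.93%. AT3G46 and AT3G48, within the stretch, held under 50 named genes and are not among the blocks.

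Genes next to each other in the order of named genes were called the same way more often than genes at large. Genes without a named probe set may lie between such neighbours. Of the 392 genes that rose, 45 had a neighbouring named gene that rose too (11.5%), while 5.68% of all 13265 nuclear named genes had one. Of the 402 that fell, 61 had a neighbour that fell (15.2%, against 5.93%). The longest run held 5 genes, AT5G48760 to AT5G48800, all higher, by 0.34 to 1.26. Within it AT5G48790 rose 2.39-fold, from 6.02, 6.14 and 6.24 to 7.48, 7.32 and 7.36 (1.26 ± 0.11, adjusted p = 1.75e-05). Other runs paired the large rises AT5G51620 and AT5G51630 (1.63 and 1.44) and AT5G02350 and AT5G02360 (1.28 and 1.22). Among falls, AT1G60730 and AT1G60750 were such neighbours in the order of named genes (−1.88 and −1.31). Neighbours can share sequence, which was not tested, and AT5G02360 is read by a probe set that detects several related transcripts, so signals of such genes may not be separate.

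**Figure D4:**
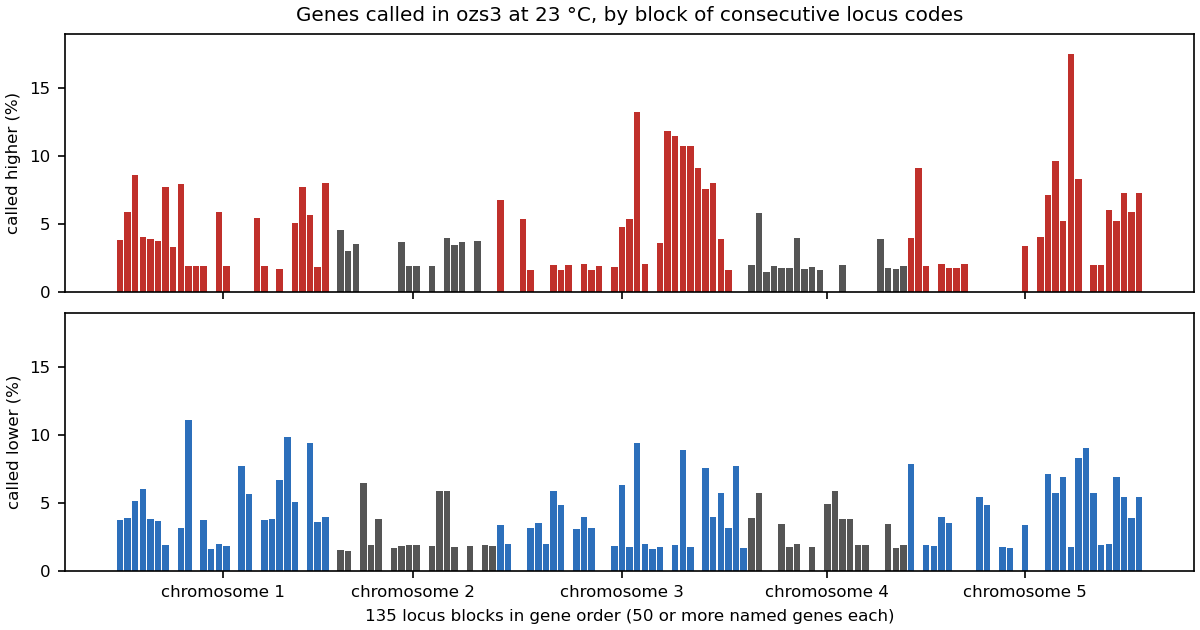
Percent of named genes called higher (upper panel) and lower (lower panel) in ozs3 at 23 °C, 1 bar per block of consecutive locus codes in gene order along the 5 chromosomes, with odd chromosomes coloured and even ones grey. Bars of 9.09% to 17.5% for higher genes gather in parts of chromosomes 3 and 5, while the bars for lower genes reach at most 11.1%, on chromosome 1.

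The same genotype difference was then read in the 6 arrays of plants kept at 4 °C, which share no array with the comparison at 23 °C. There 1794 named genes were called (13.4%), 806 higher in ozs3 (6.03%) and 988 lower (7.4%). The split at 4 °C depends on the scaling: of all called probe sets 43.9% were higher as deposited and 60.7% after each array was set to a common median. At 23 °C these shares were 49.9% and 41.2%. The interaction, which tests whether the genotype difference itself differed between temperatures, was called for 1260 named genes (9.43%). Over all probe sets 14.6% were called at 4 °C and 10.1% for the interaction.

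Of the 392 genes that rose at 23 °C, 95 also rose at 4 °C, which is 24.2% of the first list and 11.8% of the second, and 30 fell there. Of the 402 that fell, 89 fell at 4 °C too (22.1% and 9.01%) and 39 rose. The interaction was called for 175 of the genes that rose (44.6%) and 185 of those that fell (46.0%). The median difference was 0.51 at 23 °C and 0.13 at 4 °C for the genes that rose, and −0.57 and −0.07 for those that fell. These genes were chosen by their 23 °C difference, which is also a term of the interaction, so the interaction shares and the smaller medians at 4 °C follow in part from that choice and are a description.

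Some changes were called at both temperatures with no interaction call. AT2G22120 had 8.66, 8.90 and 8.81 in Col-0 and 7.10, 6.93 and 7.07 in ozs3 at 23 °C (−1.76 ± 0.14, adjusted p = 7.92e-06), and its difference at 4 °C was −2.34 (adjusted p = 1.33e-06, interaction adjusted p = 0.0770). AT1G80320, AT1G52790 and AT1G52820 had differences of −1.74, −1.64 and −1.38 at 23 °C and −1.87, −1.86 and −1.46 at 4 °C. AGL72 (−1.79 at 4 °C), AT1G04770 (−1.44) and AT3G29970 (−1.49) also fell at both. Among rises, APS4 kept most of its difference (0.96 at 4 °C, adjusted p = 4.63e-05, interaction 0.0511), and QQS was 1.66 higher there (adjusted p = 0.0186, interaction 0.158).

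Other large changes differed between temperatures by the test of the interaction. AT3G48450 lay at 8.78 in Col-0 and 8.94 in ozs3 at 4 °C, where it did not pass (0.16, adjusted p = 0.641), and its interaction was called (2.86, adjusted p = 0.000143). The Col-0 level at 4 °C was thus close to that of the mutant at 23 °C. CCOAMT (0.06 at 4 °C), AT1G26380 (−0.08) and ICL (0.07) had called interactions of 1.97, 1.98 and 1.56. TIL and AT1G26270 had differences of −0.0048 and 0.0042 at 4 °C and called interactions of 0.67 and 0.70. None of the 24 low-oxygen genes was called at 4 °C, where their median was 0.00, and 4 had a called interaction.

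Of the 10 named mitochondrial dysfunction genes, 8 were called higher in ozs3 at 4 °C and none lower, with a median of 1.55, and 9 had a called interaction. AT2G41730 had a difference of −1.94 at 23 °C and 3.37 at 4 °C (adjusted p = 0.000101, interaction 5.31). AT2G21640 went from −1.18 to 1.55 (interaction 2.73, adjusted p = 0.000708). AT2G22880 (−1.79 to 0.66) and AT1G76600 (−1.43 to 0.59) changed direction as well, with interactions of 2.45 and 2.02. PYE did so at a smaller size, from −0.43 to 0.40 (interaction adjusted p = 0.00556).

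The 30 largest rises at 23 °C had a median of 1.46 there and 0.36 at 4 °C, where 13 were called higher and none lower, and the interaction was called for 26. The 30 largest falls had a median of −1.48 at 23 °C and −0.24 at 4 °C, where 12 were called lower and 3 higher, with 19 interaction calls. These genes were chosen for their size at 23 °C, so the medians are given as a description.

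**Figure D5:**
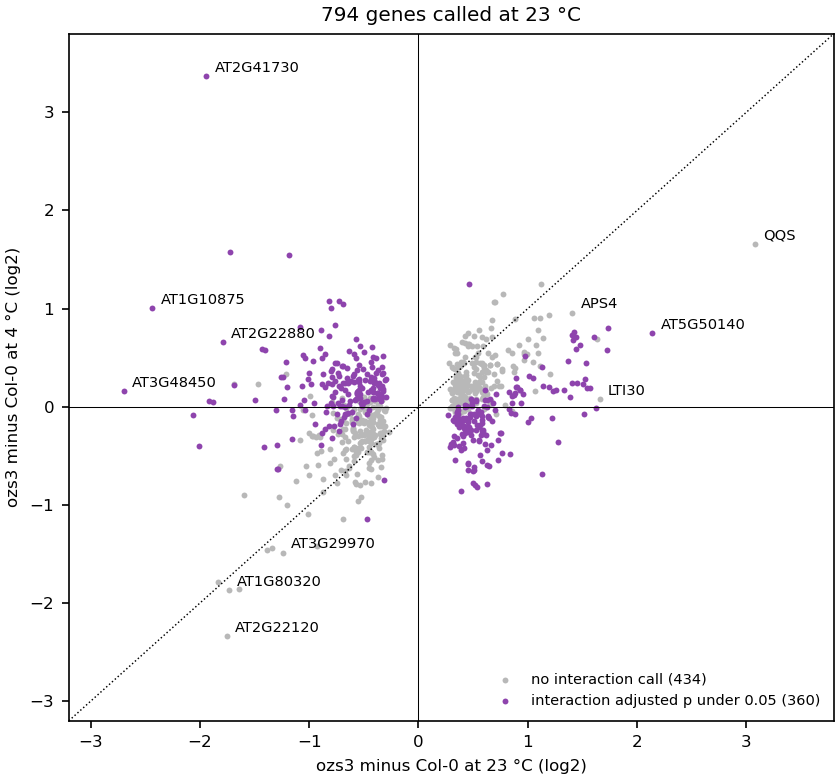
Difference between ozs3 and Col-0 at 4 °C (y axis, log2) against that at 23 °C (x axis, log2) for the 794 named genes called at 23 °C, with the 360 genes that had an interaction call in purple and a dotted line where both differences are equal. AT2G22120 and AT1G80320 lie near the line, AT3G48450 near 0 at 4 °C, and AT2G41730 at −1.94 and 3.37.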

How the data were processed

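Affymetrix ATH1 arrays of Arabidopsis roots were analysed. The deposited log2 values were made by the authors with RMA, per the submitters' processing notes, which as used here give no version. RMA corrects background, quantile-normalizes and summarises probes, so its values are relative between arrays. No column of per-sample values was left unmapped.

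The 64 Affymetrix controls among the 22810 probe sets did not enter the fit. Group means of all 12 arrays were fitted with limma 3.58.1 in R 4.3.3 (lmFit, eBayes; 8 residual and 5.42 prior degrees of freedom) and p-values were adjusted by the Benjamini-Hochberg method over 22746 probe sets, with calls at 0.05. The procedure was also run on simulated data with independent noise in each array, which cannot test effects shared by same-numbered arrays. The 3 labelled biological replicates a group limit the precision, and a mean of 5 or less was taken as dim.

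A gene was read by its single-gene probe set with the highest mean over 12 arrays, which gave 13356 named genes. The probe table gave 1 gene for 13513 probe sets, several for 503 and none for 8730, and names followed RefSeq's TAIR10.1 table. Members and lists were chosen with earlier results of these data known. Named genes were the 30 largest non-overlapping called changes each way, up to 5 members a list by adjusted p, and AT4G28450, CUL4 and ZIP9. After values were seen, called genes with a symbol and a fold of 1.5 or more were added, a late embryogenesis pattern was corrected, 3 loci were taken out of the zinc list, organelle locus tags were added, 1 list was renamed, and locus blocks were made. Of 67 lists, 22 had no named member. Promoter motifs were not analysed here.

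Deviations of same-numbered arrays correlated at 0.294, 0.326 and 0.473, and others at −0.296 to 0.042. Replicate numbers were therefore taken as pairing in the alternatives with a block. The main fit had no term for them, so SEs, adjusted p-values and calls are unpaired unless a block is named. Alternatives were the replicate block, the 6 arrays alone, repeated quantile normalization, a common median, an intensity trend, array weights, dim probe sets left out, a threshold of 0.01, a fold of 2 and each array left out. Leaving out replicate 3 of both genotypes was added after seeing the data.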

Additional observations from a re-analysis of the deposited data

Results flagged for a closer look

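Of the genes chosen by the naming rule, 96 had an interaction call. Given here are the 80 that were called at 23 °C and, of the 16 that were not, ZIP9. These 81 had a genotype difference that differed between 23 °C and 4 °C by the interaction term of the limma fit (adjusted p under 0.05). The value given is the difference between ozs3 and Col-0 at 4 °C minus that at 23 °C, on the log2 scale. It was above 0 for 47 genes, all with a difference below 0 at 23 °C. The 23 °C difference is itself a term of the interaction, so choosing genes called at 23 °C largely sets this opposite sign. The values were 5.31 for AT2G41730, 3.44 for AT1G10875, 2.86 for AT3G48450, 2.73 for AT2G21640, 2.45 for AT2G22880 and 2.02 for AT1G76600. Next came 1.98 for AT1G26380, 1.98 for AR781, 1.97 for CCOAMT, 1.92 for AT1G60730, 1.92 for GRX480 and 1.81 for CML37. These were followed by 1.67 for GAT1_2.1, 1.61 for AT3G46480, 1.58 for OSM34, 1.56 for ICL, 1.56 for AT1G01670 and 1.54 for AT2G37810. Then came 1.43 for SUFE2, 1.31 for AT4G33980, 1.27 for AT1G60750, 1.12 for LCR67, 1.11 for bZIP58 and 1.06 for LOV1. Below these lay 1.05 for WRKY6, 1.04 for UGT87A2, 1.0 for AT1G14260, 1.0 for AT1G47400, 0.9 for AT5G05250 and 0.9 for AT1G26410. After them came 0.9 for AT2G36950, 0.89 for ZIP9, 0.88 for PUB22, 0.84 for PDF1.4, 0.83 for CCR2 and 0.83 for PYE. Smaller ones were 0.7 for AT1G26270, 0.67 for AT5G35940, 0.67 for TIL, 0.66 for AT5G09570, 0.64 for AT5G58120 and 0.61 for MAP1C. The last were 0.58 for PWD, 0.54 for VPS24.2, 0.54 for AT1G74940, 0.51 for XTH29 and 0.5 for YLS5.

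It was below 0 for 34 genes, all with a difference above 0 at 23 °C. The values were −1.64 for AT5G02350, −1.64 for AT3G54070, −1.59 for AT5G49870, −1.39 for AT5G50140, −1.38 for AT4G01740 and −1.36 for AT5G43030. Next came −1.34 for AT5G02360, −1.28 for AT3G44400, −1.28 for AT1G73490, −1.24 for AT3G47680, −1.2 for RALFL27 and −1.17 for AT3G46730. These were followed by −1.16 for AT1G24240, −1.15 for AT3G48080, −1.09 for AT5G48790, −1.09 for AT4G08110, −1.07 for AT5G57150 and −0.99 for KICP-02. Then came −0.93 for HTB11, −0.91 for scpl42, −0.9 for AT1G11280, −0.9 for AT3G44840, −0.85 for AT1G23960 and −0.85 for AT4G02540. Below these lay −0.76 for AOP1, −0.75 for CYP718, −0.73 for AT3G43740, −0.73 for AT5G51630, −0.7 for CML43 and −0.67 for AT1G15790. After them came −0.66 for ATPMEPCRB, −0.56 for BGLU46, −0.47 for UGT85A2 and −0.46 for UGT76D1.

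Setting each array to 1 common median moves the median of all probe sets in the interaction from 0.0313 to 0.113 and the share of interaction calls above 0 from 42.5% to 64.0%, so signs of small values depend on the scaling. No explanation of these differences was tested.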

How the results depend on the processing

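Of the 122 called genes the text could name by its rule, 87 kept the call in each of the 21 alternatives at an adjusted p of 0.05 that held them (82 were in all 21, and 5 were not in the fit without dim probe sets), and none of the 251 genes of the rule reversed. Of the 60 largest changes, 56 kept it in the same sense (54 in all 21), the exceptions being LTI30, GRX480, AT2G30670 and AT3G29970. At 23 °C, 1442 probe sets were called, 720 higher and 722 lower. The replicate block gave 2253 with 12 arrays (1174 higher) and 2718 with 6 arrays (1421 and 1297). All 1442 calls were among the former and 1430 among the latter. Array weights gave 2323 (1228 and 1095). Without replicate 3 of both genotypes, chosen after seeing the data, 752 were called (386 and 366). A threshold of 0.01 left 564 (279 and 285) and a fold of 2 left 183 (69 and 114). Leaving out 1 array gave 767 to 1551 in all, 351 to 795 higher and 363 to 756 lower. Over 1.5 times fewer were called without Col-0 replicate 2 (919) or 3 (954) or ozs3 replicate 1 (783) or 2 (767). At 4 °C, 3326 probe sets were called, 1546 at 0.01 and 2227 to 3467 without 1 array. The interaction had 2300 calls, 805 at 0.01 and 1439 to 2279 without 1 array, the fewest being without ozs3 replicate 1 or 2 at 23 °C (1439 and 1457). The causes were not tested. Signal near background limits dim genes, whose differences may be understated.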
